A study of Bos grunniens and Bos grunniens x Bos taurus with 2 samples.

Results

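Cells holding transcripts of *IL7R*, *ICOS* and *CD28* were examined in 2 single-cell RNA libraries of testis, 1 from a yak (Bos grunniens) and 1 from a cattle-yak (Bos grunniens x Bos taurus). A cell was chosen when *IL7R*, *ICOS* and *CD28* together gave at least 2 UMIs (unique molecular identifiers, each standing for 1 captured transcript) and *TRDC*, the constant region of the T cell receptor delta chain, gave 0. In addition, the cytotoxic lymphocyte genes *CCL5*, *NKG7* and *CST7* together gave at most 2 UMIs, and the endothelial gene *CDH5*, the stromal gene *DCN* and the muscle gene *LMOD1* together gave 0. Cells with 30% or more of their UMIs from the mitochondrial genome were left out beforehand. In all, 746 of the 18734 remaining cells met the rule, out of 20921 cells in the files. They comprised 542 of 11114 yak cells (4.88%, exact binomial 95% interval 4.48 to 5.29) and 204 of 7620 cattle-yak cells (2.68%, interval 2.33 to 3.06). Both the choice of genes and the thresholds came from earlier results on these same data, so the levels of *IL7R*, *ICOS* and *CD28* below only describe the selection. *LTB* and *GPR183* are not part of the rule but were given as markers of these cells with those results known. Their levels are therefore not an independent check.

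Frozen testis pieces were thawed, digested with enzymes and captured on the 10x Genomics platform, with the same protocol for both libraries and no sort named. The yak was 1 animal of 4 years, and the labels place both donors after sexual maturity. The age and number of animals behind the cattle-yak library are not given in the sources used here, and the study's paper does not describe it. The labels call both samples germ cells, and germ cell transcripts in the chosen cells are described below. With 1 library per animal type there was no replicate, so no p-value was computed, the libraries were kept apart, and every interval covers counting error only. The yak library held 60816600 UMIs with a median of 2533 per cell, and the cattle-yak library 43774841 UMIs with a median of 3155. A total of 24 cell barcodes occurred in both libraries, of which 0 belonged to a chosen cell.

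*IL7R* is the receptor for interleukin 7, a survival signal for resting and memory lymphocytes that is also found on innate lymphoid cells. *CD28* delivers the costimulatory signal that a T cell needs beside its antigen receptor, and *ICOS* is a related receptor that appears after activation and is used by helper T cells. *LTB* encodes lymphotoxin beta, a membrane cytokine that organises lymphoid tissue, and *GPR183* is the oxysterol receptor that guides lymphocytes and dendritic cells to their positions within it. The testis is known as a site where immune responses are held back, and its lymphocytes lie among the interstitial cells outside the seminiferous tubules.

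The chosen cells were of modest depth. The median was 2200 UMIs and 783.5 genes per cell in the yak library and 2320 UMIs and 668.5 genes in the cattle-yak library. The median mitochondrial share was 15.6% in the yak and 21.8% in the cattle-yak cells. The rule counts raw UMIs, so a deeper cell reaches it more easily. When each cell was first thinned to 1000 UMIs, 4.03% of yak and 1.89% of cattle-yak cells met it, and the yak share was again the higher. A share also depends on which other cells came through the digestion. For instance, cells with 3 or more UMIs of *DCN* and *LMOD1* and none of *CDH5* made up 12.7% of the yak and 33.2% of the cattle-yak library.

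For 20 of the 542 yak cells, the data went against the label of T cells. These cells held 3 or more UMIs of *HMGB4*, *TNP1* and *ACRV1*, genes of spermatids (*HMGB4* a chromatin protein, *TNP1* a transition protein that replaces histones, *ACRV1* a protein of the acrosome). They made up 3.69% of the chosen yak cells and carried 37.8% of their UMIs. Their depth ran from 1528 to 111091 UMIs with a median of 37110.5, against a highest depth of 18734 in the other 522 cells. The spermatid UMIs per cell ranged from 3 to 831 with a median of 238. They held 34 UMIs of *IL7R*, 33 of *CD28* and 1 of *ICOS*, which is how they met the rule. Several transcripts of T cells were low in them, though not all. The feature described as the T cell receptor beta constant region stood at 11.6 CPM (its UMIs scaled to 1000000 UMIs of the group) in these 20 cells and at 1847 CPM in the other 522. They held 0 UMIs of *CD3G*, a chain of the receptor complex, and 0 of *CD40LG*. *CD3D*, another chain of that complex, gave 20 UMIs in 11 of the 20 cells (25.7 CPM, against 395 CPM in the other 522), and *CTLA4* gave 25 UMIs in 12 of them. *PRKCQ*, a kinase of T cell receptor signalling, was higher in them, at 351 against 43.7 CPM, with 83.0% of its UMIs. They also supplied 292 of the 295 *AREG* UMIs of all 542 cells, where *AREG* is a growth factor made by several lymphocyte types, and 1338 UMIs of *AIF1*, a gene used as a macrophage marker (98.5% of its total). *AREG* and *AIF1* belong to the gene lists of innate lymphoid cells and macrophages, which are used below. No chosen cattle-yak cell was of this kind, and the highest spermatid count in the 204 cells was 0. This held for the whole library, since all 7620 kept cattle-yak cells had fewer than 3 spermatid UMIs. In the yak library, 10806 of the 11114 kept cells had fewer than 3. The 542 cells are the set the rule gives. The levels below are those of the 522 yak cells and 204 cattle-yak cells with fewer than 3 spermatid UMIs, with cells over that limit left out of every comparison group too, and a value over all 542 cells is named as such. This split was made after the data had been seen.

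**Figure D1:**
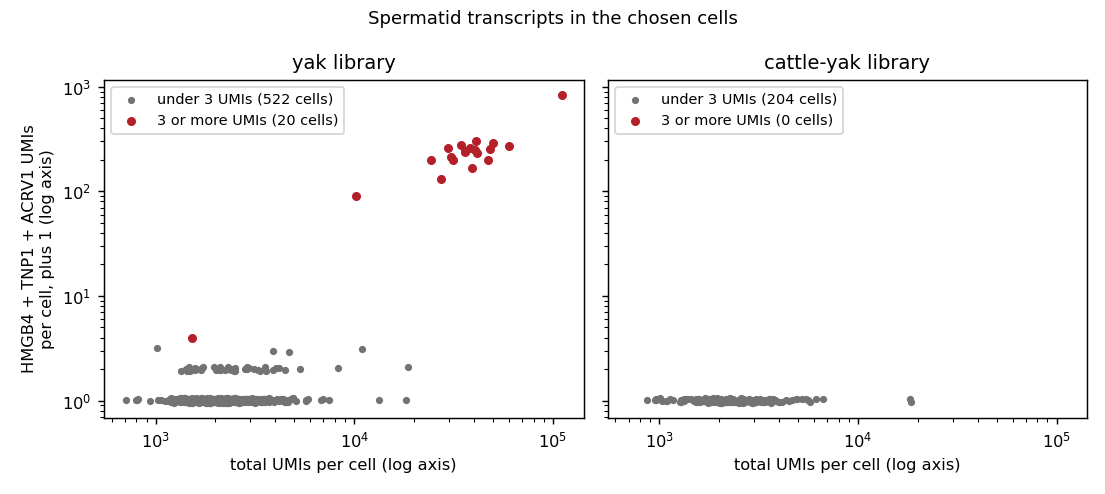
Each point is 1 chosen cell, with its total UMIs on the horizontal log axis and its UMIs of HMGB4, TNP1 and ACRV1 plus 1 on the vertical log axis (points under 3 UMIs are shifted slightly at random on the vertical axis so that they can be told apart). In the yak library, 20 cells hold 3 or more spermatid UMIs and most of them lie above all other cells in depth, whereas the 204 cattle-yak cells all lie at 0.

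Chains of the T cell receptor, which the rule did not use, were then counted in the remaining cells. At least 1 UMI of *CD3D*, *CD3G*, *CD247* or the features described as the alpha and beta constant regions of the receptor was present in 509 of 522 yak cells (97.5%, interval 95.8 to 98.7). In the cattle-yak library the same held for 193 of 204 cells (94.6%, interval 90.6 to 97.3). As a background, the share in cells with 2 or more UMIs of *CDH5*, which mark endothelium, was 15.1% in the yak and 8.36% in the cattle-yak library, although these cells were deeper, with medians of 6746 and 7183 UMIs. In cells with 3 or more UMIs of the macrophage genes *CSF1R*, *C1QA* and *CD163* it was 16.5% and 6.78%. Cells with 2 or more UMIs of *IL7R*, *ICOS* and *CD28*, or with any of *TRDC*, were left out of this macrophage group. That choice can lower its receptor share. Thinned to 1000 UMIs, 88.6% of the 517 yak cells that were deep enough held a receptor transcript, against 4.81% of the *CDH5* cells. The thinned shares in the cattle-yak library were 78.0% of 200 cells and 2.39%. Of the 20 spermatid-type cells, which were far deeper, 18 held a receptor UMI as deposited and 2 after thinning. *CD3D* alone was found in 53.4% of the 522 yak and 41.2% of the 204 cattle-yak cells, and at 1000 UMIs in 28.4% and 16.5%, against 34.6% and 22.6% of cytotoxic cells (defined below) and 1.09% and 0.60% of *CDH5* cells. The label of T cells held for most of the 522 and 204 cells by the receptor genes counted together, and 13 yak and 11 cattle-yak cells had no receptor transcript at all. *CD3E* and the *CD8* genes had no symbol in the annotation and were not analysed here.

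The coreceptor *CD4*, which marks helper T cells, was seen in few cells. It gave 51 UMIs in 49 yak cells (9.39%, interval 7.03 to 12.2) and 11 UMIs in 11 cattle-yak cells (5.39%, interval 2.72 to 9.44). *CD4* was found in 0 of 655 yak and 0 of 335 cattle-yak *CDH5* cells. The chosen cells were set beside the lymphocytes nearest to them that the rule could not also take, namely cells with 3 or more UMIs of *CCL5*, *NKG7* and *CST7*, 0 of *TRDC* and 0 of *CDH5*, *DCN* and *LMOD1*. These cytotoxic lymphocytes numbered 1127 in the yak and 327 in the cattle-yak library, with medians of 1881 and 2353 UMIs. A group with 2 or more *TRDC* UMIs and 0 of *CDH5*, *DCN* and *LMOD1*, meant to hold gamma delta T cells, numbered 1344 and 302. The alpha or beta constant region was found in 76.4% of its yak and 76.2% of its cattle-yak cells, against 95.2% and 92.2% of the chosen cells. The group is therefore named by *TRDC* alone. *CD4* stood at 39.8 CPM in the chosen yak cells and at 7.45 CPM in the yak cytotoxic cells, and at 20.3 and 1.14 CPM in the cattle-yak library, where the last value is 1 UMI.

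Most chosen cells qualified through *IL7R*. It was detected in 463 of the 522 yak cells and 180 of the 204 cattle-yak cells, *ICOS* in 293 and 91, and *CD28* in 183 and 51. A total of 150 yak cells (28.7%) and 88 cattle-yak cells (43.1%) had *IL7R* without *ICOS* or *CD28*. *IL7R* together with *ICOS* alone was the most frequent pair, with 165 yak and 53 cattle-yak cells. All of *IL7R*, *ICOS* and *CD28* were present in 71 yak cells (13.6%) and 16 cattle-yak cells (7.84%). The rule genes were not confined to the chosen cells, since 214 of the 1127 yak cytotoxic cells (19.0%) and 169 of the 1344 yak *TRDC* cells (12.6%) also held 2 or more of their UMIs. In the cattle-yak library the numbers were 51 of 327 cytotoxic cells (15.6%) and 65 of 302 *TRDC* cells (21.5%). In *CDH5* cells the number was 6 of 655 in the yak and 1 of 335 in the cattle-yak library. In cells with 3 or more UMIs of *DCN* and *LMOD1* it was 30 of 1407 and 21 of 2533.

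**Figure D2:**
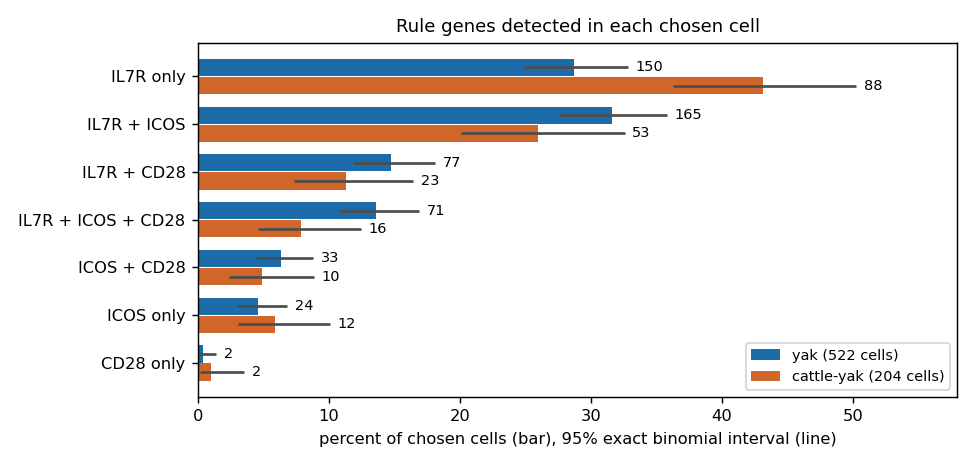
Bars give the percent of chosen cells with each combination of detected rule genes, for 522 yak and 204 cattle-yak cells, with exact binomial 95% intervals and the number of cells beside each bar. IL7R alone makes up 28.7% of the yak and 43.1% of the cattle-yak cells, and CD28 alone makes up 2 cells in each library.

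Cells near the thresholds of the rule were described without a test. In the yak library, 241 cells met every other part of the rule but held 1 UMI of *IL7R*, *ICOS* and *CD28*, and 134 chosen cells held exactly 2. The T cell receptor beta constant region stood at 1043 CPM in the former and 1812 CPM in the latter, and at 74.8 CPM in the 2416 cells with 0 UMIs. *LTB* stood at 732, 1050 and 42.6 CPM in these yak cells. The cells just outside the rule thus held receptor and *LTB* transcripts far above the cells with 0 UMIs. In the cattle-yak library the receptor feature stood at nearly the same level on both sides of the threshold, at 1329 CPM with 1 UMI, 1325 CPM with 2 UMIs and 59.9 CPM with 0. There, 84 cells with 1 UMI held *LTB* at 868 CPM and 64 cells with 2 UMIs held it at 1137 CPM. At the cytotoxic limit, the feature described as the chemokine CCL4 stood at 197, 320, 470 and 943 CPM in yak cells with 0, 1, 2 and 3 UMIs of *CCL5*, *NKG7* and *CST7*, the last being 73 cells just outside. In the cattle-yak library it stood at 271, 876, 2253 and 739 CPM in 91, 70, 43 and 14 cells, so that the 14 cells just outside lay below the 43 chosen cells with 2 UMIs.

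*LTB* was present in 352 of the 522 yak cells (67.4%, interval 63.2 to 71.4) and 128 of the 204 cattle-yak cells (62.7%, interval 55.7 to 69.4). The share was 40.1% in yak and 49.2% in cattle-yak cytotoxic cells, and 8.70% and 5.67% in *CDH5* cells. At 1000 UMIs per cell, the yak shares were 50.3% and 28.3%, and the cattle-yak shares 47.0% and 33.0%. The level was 1092 CPM (1398 UMIs) against 449 CPM in yak cytotoxic cells, a log2 ratio of 1.28 (interval 1.17 to 1.39). In the cattle-yak library it was 941 CPM (510 UMIs) against 423 CPM, a log2 ratio of 1.15 (interval 0.96 to 1.35). Log2 ratios are on the scale of CPM plus 1. *TRDC* cells held 431 and 582 CPM of *LTB*, below the chosen cells of both libraries. Over all 542 yak cells, the log2 ratio was 0.71, and the 20 spermatid-type cells in it held 3 UMIs of *LTB*.

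*GPR183* had a larger ratio than *LTB* in both libraries. It was found in 223 yak cells (42.7%, interval 38.4 to 47.1) and 94 cattle-yak cells (46.1%, interval 39.1 to 53.2), against 147 of 1127 yak and 56 of 327 cattle-yak cytotoxic cells. Its level was 407 CPM (521 UMIs) against 109 CPM in the yak, a log2 ratio of 1.89 (interval 1.69 to 2.1), and over all 542 cells 1.28. In the cattle-yak library it was 362 CPM (196 UMIs) against 98.9 CPM, a log2 ratio of 1.86 (interval 1.5 to 2.25). *TRDC* cells held 63.6 CPM in the yak and 168 CPM in the cattle-yak library. *GPR183* was not particular to lymphocytes, and 26.2% of yak and 37.3% of cattle-yak cells with macrophage transcripts held it. In *CDH5* cells the share was 1.98% and 0.30%.

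**Figure D3:**
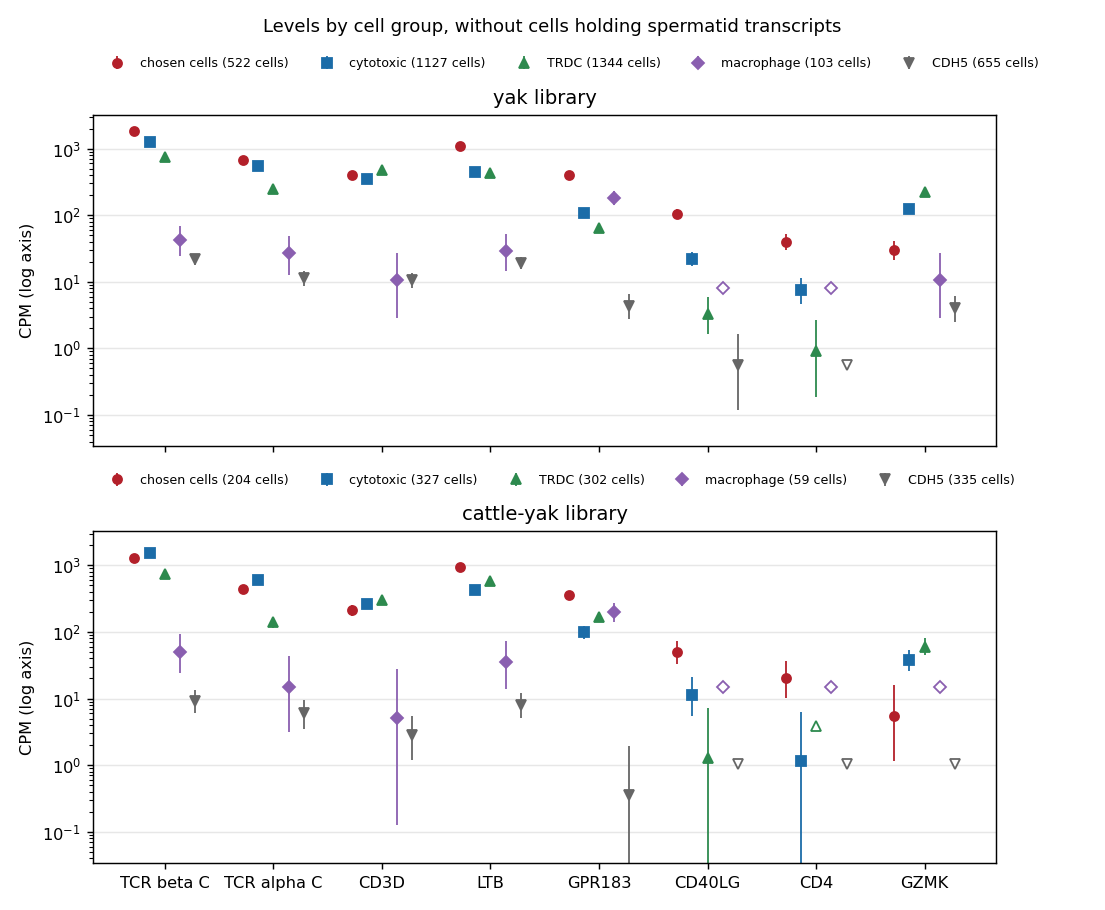
Each marker is the level of a gene in a group of cells, in CPM on a log axis, with the exact Poisson 95% interval as a line, for the yak library above and the cattle-yak library below; open markers stand for 0 UMIs and are drawn at the CPM of 3 counts. LTB, GPR183, CD40LG and CD4 lie higher in the chosen cells than in the cytotoxic cells of both libraries, whereas GZMK lies lower in them than in the cytotoxic and TRDC cells. Levels are to be read within a gene.

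Of the receptor and its proximal signalling genes, 16 of the 22 listed had a symbol, and 11 reached 30 summed counts in each library. Among them, 1 was over 2-fold higher in the chosen than in the cytotoxic cells of both libraries and 0 were lower, while with all 542 yak cells 0 were higher and 0 lower. The gene that was higher was *CD5*, a brake on receptor signalling, at 44.5 CPM against 15.9 CPM in the yak and 33.2 against 14.8 CPM in the cattle-yak library, where 18 and 13 UMIs put the interval of the log2 ratio at 0.06 to 2.32. Over all 3767 genes with enough counts, 20 were higher by this measure (0.531%) and 67 lower (1.78%). These shares are the background for the counts of each list below, and a count of 0 in a short list lies near them. The median log2 ratio of the list was 0.21 in the yak and -0.31 in the cattle-yak cells, beside -0.15 and -0.09 over all genes tested. With all 542 yak cells the list median was -0.25, beside -0.34 over all genes. The sign of the yak median thus depends on leaving out the 20 spermatid-type cells. *CD3D* stood at 395 CPM in yak and 212 CPM in cattle-yak chosen cells, and its log2 ratio to cytotoxic cells was 0.16 and -0.31. The 20 cells left out held *CD3D* at 25.7 CPM and carried 37.8% of the UMIs of all 542 cells. Counting them turns the yak ratio of *CD3D* negative.

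Among the receptors of costimulation and restraint with enough counts in both libraries, the helper gene *CD40LG* stood out. *CTLA4* gave the most yak UMIs of this list (168) but did not have enough counts in both libraries, and it is described below. *CD40LG*, the ligand by which helper T cells license B cells and dendritic cells, was found in 96 yak cells (18.4%, interval 15.2 to 22.0) and 21 cattle-yak cells (10.3%, interval 6.49 to 15.3), against 4.26% and 1.53% of cytotoxic cells. The level was 105 CPM against 22.4 CPM in the yak, a log2 ratio of 2.18 (interval 1.79 to 2.68), and 49.8 against 11.4 CPM in the cattle-yak library, a log2 ratio of 2.04 (interval 1.04 to 3.34). *TRDC* cells held 11 and 1 UMIs of it. Of the 14 genes on this list 11 had a symbol and 3 had enough counts, with 1 higher (*CD40LG*) and 1 lower (*CD96*). *CD96*, an adhesion receptor of T and NK cells, stood at 46.9 CPM against 228 CPM in the yak and at 66.4 against 283 CPM in the cattle-yak library. *CD226*, which shares a ligand with *CD96*, differed little, with log2 ratios of 0.15 and 0.14. *PDCD1* gave 1 UMI in each library, and *TIGIT* gave 0 in both, which allows up to 2.34 CPM in the yak and 5.53 CPM in the cattle-yak cells.

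Regulatory and helper programmes were thinly covered. *FOXP3*, the regulator of regulatory T cells, gave 2 UMIs in the yak and 0 in the cattle-yak cells. *IKZF2*, also used by those cells, was the only gene of their list with enough counts and was lower than in cytotoxic cells, at 39.1 against 110 CPM in the yak and 31.4 against 64.8 CPM in the cattle-yak library. *CTLA4*, described below, led this list in the yak with 168 of 260 UMIs and went the other way. It was found in 9.58% of chosen and 1.15% of cytotoxic yak cells. The list summed to 203 against 122 CPM in the yak and 53.5 against 65.9 CPM in the cattle-yak library. Of 22 helper and innate-like genes 17 had a symbol and 3 had enough counts, with 0 past 2-fold in both libraries. Over all 3767 genes, 0.531% were higher and 1.78% lower, so that 0 lies near the share over all genes. *RORA*, a nuclear receptor of type 17 and innate-like lymphocytes, stood at 76.5 CPM in yak and 46.1 CPM in cattle-yak chosen cells against 47.1 and 23.9 CPM. The type 2 cytokine *IL4* gave 52 UMIs in 26 yak cells and 26 UMIs in 10 cattle-yak cells, of which 1 cell held 42.3%. Yak cytotoxic cells held 38 UMIs of *IL4* and cattle-yak ones 2, in levels 12.9 and 2.27 CPM against 40.6 and 48.0 CPM. The type 1 cytokine *IFNG* stood at 70.3 CPM (90 UMIs) in yak and 20.3 CPM (11 UMIs) in cattle-yak chosen cells, against 39.3 and 22.7 CPM in cytotoxic cells. *GATA3*, the regulator of type 2 cells, gave 40 and 14 UMIs.

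Genes of naive and central memory cells summed to 642 CPM in the yak and 557 CPM in the cattle-yak chosen cells, against 704 and 622 CPM in cytotoxic cells. The most abundant was *KLF2*, a transcription factor that endothelial cells also express, at 338 and 327 CPM against 480 and 360 CPM in cytotoxic cells and 3786 and 3562 CPM in *CDH5* cells. *CCR7*, a chemokine receptor of cells that recirculate, gave 5 UMIs in yak and 1 in cattle-yak cells, and *S1PR1*, which guides lymphocytes out of tissue, gave 3 and 0. *TCF7*, a transcription factor of cells that can still expand, stood at 28.1 and 22.1 CPM against 17.6 and 22.7 CPM in cytotoxic cells. Of the 10 genes listed, 9 had a symbol, 6 had enough counts and 0 were past 2-fold in both libraries. Tissue residence genes were not higher than in cytotoxic cells by 2-fold. *RGS1*, a signalling regulator of resident lymphocytes, stood at 1428 CPM against 2393 CPM in the yak and 1352 against 1712 CPM in the cattle-yak library. *CD69*, which retains lymphocytes in tissue, stood at 78.9 and 55.3 CPM in chosen cells, with log2 ratios to cytotoxic cells of 0.31 and -0.07. Of the 9 residence genes 8 had a symbol and 7 had enough counts, with 0 higher and 1 lower, *CRTAM*. Beside them, 0.531% of all 3767 genes were higher and 1.78% lower, so the counts of 0 in both lists lie near the share over all genes.

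The cytotoxic programme beyond the rule genes was weak. In the yak library, *GZMK*, a granzyme, stood at 29.7 CPM against 124 CPM, and *GZMM* at 7.03 against 112 CPM. The cattle-yak values were 5.53 against 37.5 CPM and 31.4 against 107 CPM. Of 24 genes listed, 13 had a symbol. Without the rule genes, 6 had enough counts, with 0 higher and 3 lower (*GZMK*, *GZMM* and the activating receptor *KLRK1*), and the median log2 ratio was -1.94 in the yak and -1.36 in the cattle-yak library. The rule limits *CCL5*, *NKG7* and *CST7*, so a low level of genes that go along with them is in part how the cells were picked. *EOMES*, the regulator of cytotoxic memory cells, had log2 ratios of -2.34 and -0.77. *NCR3*, an activating receptor of NK cells, did not follow them, with 198 CPM against 214 CPM in the yak and 225 against 136 CPM in the cattle-yak library. *IL2RB*, the receptor chain shared by interleukins 2 and 15, was lower, at 96.1 against 234 CPM and at 35.1 against 348 CPM, and was the only gene past 2-fold in both libraries among 6 of the cytokine receptor and JAK-STAT list with enough counts.

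Several features without a symbol are described in the study's gene annotation as genes of NK and cytotoxic T cells. As for the listed cytotoxic genes, a low level of them is in part how the cells were picked. ENSBGRG00000020643, described as CD94, gave 7 UMIs in the yak cells (5.47 CPM) against 231 CPM in cytotoxic cells, and 0 UMIs in the cattle-yak cells against 120 CPM. ENSBGRG00000021140, described as NKG2A-like, stood at 3.90 against 203 CPM and at 1.84 against 180 CPM. CD94 pairs with NKG2A as an inhibitory receptor of NK and cytotoxic T cells. ENSBGRG00000010946, described as the chemokine CCL4, stood at 312 against 5366 CPM in the yak and at 900 against 4622 CPM in the cattle-yak library. It was still present in 100 of 522 yak cells and 44 of 204 cattle-yak cells.

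Genes of innate lymphoid cells, which share *IL7R*, were examined as well. *ID2*, which such cells require and which T cells also use, stood at 1236 CPM against 641 CPM in the yak and 946 against 684 CPM in the cattle-yak library, and of its list of 9 genes 2 had enough counts and 0 were past 2-fold. *KIT* gave 8 UMIs in the yak and 0 in the cattle-yak cells, *IL1R1* gave 1 and 8, and *TNFSF11* gave 0 and 0. The other members were sparse, with *TNFRSF25*, a receptor of the TNF family, at 36.7 against 10.2 CPM in the yak (47 UMIs) and 20.3 against 10.2 CPM in the cattle-yak library (11 UMIs). *IL18R1*, a chain of the interleukin 18 receptor, stood at 20.3 against 8.13 CPM in the yak and at 7.38 against 10.2 CPM in the cattle-yak library. *NFIL3*, a transcription factor of innate lymphocytes, stood at 21.1 against 14.2 CPM and at 14.8 against 27.3 CPM. Immediate early genes had median log2 ratios of -0.07 and -0.09, beside -0.15 and -0.09 over all genes tested. Of 10 with enough counts, 0 were past 2-fold in both libraries. Their levels were high in every lymphocyte group, and *FOS* stood at 1150 CPM in chosen and 1498 CPM in cytotoxic yak cells. Heat shock genes gave 0 of 5. With 0.531% of all 3767 genes higher and 1.78% lower, counts of 0 in these lists lie near the share over all genes. Of the cell cycle list 2 of 8 genes had enough counts and 0 were past 2-fold, and *TOP2A*, which untangles replicated DNA, gave 113 UMIs in 21 yak cells and 53 in 11 cattle-yak cells, with 31.0% and 58.5% of them in 1 cell.

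Marker lists of other cell types were then summed in the chosen cells. B cell and plasma cell genes summed to 15.6 CPM in the yak and 27.7 CPM in the cattle-yak cells, led by *MZB1* (9 UMIs) and *BANK1* (10 UMIs), with *MS4A1* and *PAX5* at 0 in both and 9 of 10 genes having a symbol. The defining genes of B cells were thus at or near 0. Macrophage and dendritic cell genes summed to 776 and 1398 CPM, against 38485 and 38869 CPM in cells with macrophage transcripts. Nearly all of that was *CD74*, a chaperone of antigen presentation made by many cells, with 930 of 994 UMIs in the yak and 695 of 758 in the cattle-yak library, where 1 cell held 50.1% of it. *XCR1* was at 0 in both libraries. *C1QB* and *C1QC*, 2 of the 6 genes of this list with enough counts, were over 2-fold lower than in cytotoxic cells of both libraries. Mast cell and granulocyte genes summed to 81.2 and 84.9 CPM, with *CSF3R* at 94 of 104 and 46 of 46 UMIs, and *HDC*, *FCER1A*, *S100A8* and *S100A9* at 0. Gamma delta genes had 4 of 8 symbols, with *TRDC* at 0 by the rule, *SOX13* at 0 and none with enough counts.

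Endothelial genes summed to 109 and 77.5 CPM, against 2849 and 2659 CPM in *CDH5* cells, led by *PECAM1* with 101 of 139 and 15 of 42 UMIs. Stromal and muscle genes summed to 591 and 279 CPM, led by *TAGLN* with 372 of 757 and 56 of 151 UMIs, and the yak value for cytotoxic cells was 755 CPM. The endothelial and stromal sums of the chosen cells lay near those of other lymphocytes and far below those of the named cell types. The rule holds *CDH5*, *DCN* and *LMOD1* at 0, and the named cell types were picked by these genes. The gap is therefore in part how the cells were picked. Germ cell genes summed to 80.4 CPM in the yak and 203 CPM in the cattle-yak chosen cells, against 228 and 143 CPM in cytotoxic, 140 and 57.7 CPM in *TRDC* and 128 and 176 CPM in stromal cells, so that the cattle-yak value was above those of these other groups. *UCHL1*, a gene of spermatogonia, gave 35 of 103 UMIs in the yak and 90 of 110 in the cattle-yak cells, and 1 cell held 50.0% of the latter. The place of the cattle-yak sum above the cytotoxic and stromal cells rests on that 1 cell. *ACRV1*, *TNP1*, *HMGB4* and *MEIOB* were at 0 in the cattle-yak cells. Sertoli and epithelial genes summed to 28.1 and 48.0 CPM, and 0 had enough counts. The part of these transcripts in the results was not tested. When cells with 3 or more UMIs of other germ cell, macrophage or endothelial genes were left out too, 517 yak and 198 cattle-yak cells remained, and the log2 ratio of *GPR183* was 1.69 in the yak.

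A wider look at the genes that set the chosen cells apart used all 542 cells, as the rule gives them. Of 3770 genes with at least 30 summed counts in each library, 17 were over 2-fold higher than in cytotoxic cells of both libraries (0.451%) and 83 over 2-fold lower (2.20%). Genes with a UMI in at least 10% of the chosen cells of each library were ranked by their ratio in the library where it was lower. The leading 12 were *JAG1*, *ARF4*, *PYGO1*, *CD40LG*, *SLA*, *S100A13*, *TSPAN5*, *GPR183*, ENSBGRG00000023225, *SERPINE2*, *C1orf52* and *DPP4*. Without spermatid-type cells, 10 of these 12 were again among the leading 12. *ARF4* and *C1orf52* were not, and their yak log2 ratios were 0.94 and 0.29. The median log2 ratio over all genes was -0.34 in the yak with the 20 cells and -0.15 without them.

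*JAG1*, a ligand of Notch receptors, led the list. Its level without the spermatid-type cells was 91.4 CPM (117 UMIs) against 17.6 CPM in yak cytotoxic cells, a log2 ratio of 2.31, and 120 CPM (65 UMIs) against 21.6 CPM in the cattle-yak library, a log2 ratio of 2.42. *TRDC* cells of the cattle-yak library held still more, 212 CPM, and all other cells 101 CPM in the yak and 120 CPM in the cattle-yak library, so *JAG1* separated the chosen from the cytotoxic cells without being particular to them. *S100A13*, a small calcium-binding protein of a secretion route without signal peptide, was found in 40.4% of yak and 24.5% of cattle-yak cells and stood at 269 and 131 CPM, with log2 ratios of 1.98 and 2.34. *PYGO1*, a cofactor of Wnt signalling, stood at 80.4 against 16.3 CPM and at 46.1 against 5.68 CPM. These genes were found in a larger share of chosen than of cytotoxic cells in both libraries. They were picked by their ratio to cytotoxic cells and by a minimum share of chosen cells. The larger share is therefore in part how they were picked. *SLA*, an adaptor that lowers receptor levels in T cells, stood at 91.4 against 20.3 CPM and at 66.4 against 21.6 CPM. *DPP4*, known as CD26 and a surface peptidase of memory helper cells, stood at 181 against 58.2 CPM and at 103 against 35.2 CPM. *SERPINE2*, a protease inhibitor, had log2 ratios of 1.62 and 1.67, and *TSPAN5*, a membrane organiser, 1.80 and 1.37. These genes were each detected in a minority of the chosen cells.

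Among the genes lower in the chosen cells, CD94, NKG2A-like, CCL4 and *CRTAM* have been given above. The cytotoxic cells were picked for *CCL5*, *NKG7* and *CST7*, which the rule limits in the chosen cells. Lower levels of genes that go along with these 3 are therefore in part how both groups were made. *PRKAR2B*, a regulatory subunit of protein kinase A, stood at 21.9 against 144 CPM in the yak and at 3.69 against 114 CPM in the cattle-yak library. *VAV3*, an exchange factor downstream of antigen receptors, had log2 ratios of -2.09 and -2.61 with all cells counted. ENSBGRG00000007724 and ENSBGRG00000020563 were named by the same rule. Without the spermatid-type cells, 7 of the 8 were again among the lowest 8.

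**Figure D4:**
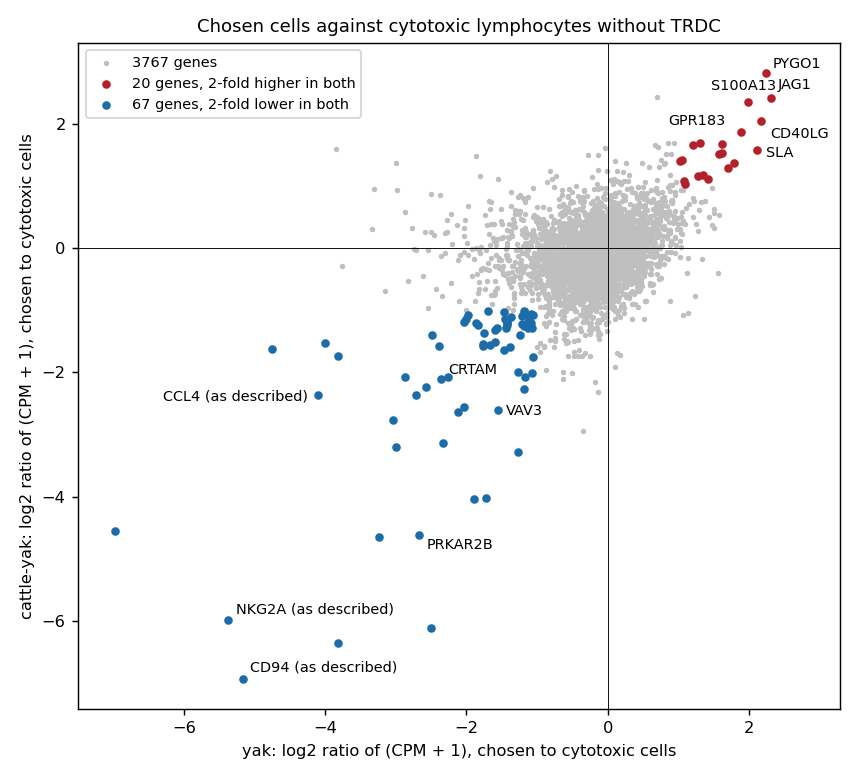
Each point is 1 of 3767 genes, with its log2 ratio of CPM plus 1 between chosen and cytotoxic cells in the yak library on the horizontal and in the cattle-yak library on the vertical axis, spermatid-type cells left out. The 20 genes past 2-fold higher in both libraries lie at the upper right, with JAG1 at 2.31 and 2.42, and the 67 genes past 2-fold lower lie at the lower left, with the feature described as CCL4 at -4.10 and -2.36.

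The chosen cells of the cattle-yak library were then set beside those of the yak library. With all 542 yak cells, 6795 genes had enough counts, of which 257 were over 2-fold higher in the cattle-yak cells (3.78%) and 2711 over 2-fold lower (39.9%), with a median log2 ratio of -0.48. Without the 20 spermatid-type cells, 4462 genes had enough counts, of which 85 were higher (1.90%) and 411 lower (9.21%), with a median of -0.27, and the same genes had a median of -0.32 in cytotoxic cells. A higher mitochondrial share lowers the CPM of every other gene, and with mitochondrial features out of the denominator the median was -0.17 and the counts were 104 and 314. These values compare 2 libraries and not 2 kinds of animal, and breed, animal and library cannot be told apart.

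The genes highest in the cattle-yak cells were features without a symbol or description. ENSBGRG00000000295 gave 50 UMIs in the 204 cattle-yak cells and 2 UMIs in all 542 yak cells, a log2 ratio of 5.56, and had log2 ratios of 4.86 in cytotoxic cells, 5.33 in *TRDC* cells and 4.68 in all other cells. ENSBGRG00000005860, ENSBGRG00000008491, ENSBGRG00000007655, ENSBGRG00000013178, ENSBGRG00000013984 and ENSBGRG00000016497 likewise had positive log2 ratios in all of these groups, from 3.22 to 4.76 in the chosen cells with all 542 yak cells counted. ENSBGRG00000005455 did not follow them. It gave 40 UMIs in the cattle-yak and 13 in all 542 yak cells, a log2 ratio of 3.35, or 11 UMIs and a ratio of 2.96 over the 522 cells. With all cells counted, the ratio was -0.05 in cytotoxic cells, -1.02 in *TRDC* cells and -1.24 in all other cells. Of its cattle-yak UMIs 12.5% came from 1 cell.

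Among the genes lowest in the cattle-yak cells were transcripts of spermatids. *CRISP2* and *DKKL1*, both of the sperm acrosome, gave 2105 and 4036 UMIs in the 542 yak cells and 1 and 2 in the cattle-yak cells. ENSBGRG00000012699, described as a spermatid transition protein, gave 13319 and 3, and the features ENSBGRG00000026521, ENSBGRG00000011949, ENSBGRG00000010860 and ENSBGRG00000021382 from 929 to 8507 UMIs in the yak and 0 or 1 in the cattle-yak cells. Some of this remained when the 20 cells were set aside, with 112 UMIs of *DKKL1* in 18.0% of the 522 yak cells and 136 UMIs of ENSBGRG00000012699 in 22.2% of them. These genes were lower in the cytotoxic, *TRDC* and all other cells of the cattle-yak library as well, so the gap was not particular to the chosen cells. *DKKL1* had a log2 ratio of -6.88 in cytotoxic and -3.73 in all other cells, spermatid-type cells left out. For ENSBGRG00000012699 these ratios were -3.06 and -0.21. Of the 1874 UMIs of ENSBGRG00000008342 in all 542 yak cells, 88.3% lay in 1 cell. Without the spermatid-type cells, ENSBGRG00000020609 was likewise among the 8 lowest, with 92.6% of its 1753 yak UMIs in 1 cell.

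T cell and marker genes described above were seen in both libraries. *LTB* stood at 1092 CPM in the yak and 941 CPM in the cattle-yak cells, and *GPR183* at 407 and 362 CPM. *CD3D* stood at 395 and 212 CPM, and the T cell receptor beta constant region at 1847 and 1282 CPM. A wider gap was seen for *CTLA4*, the inhibitory receptor that competes with *CD28* for its ligands. It gave 168 UMIs in 50 of the 522 yak cells (9.58%, interval 7.19 to 12.4) and 5 UMIs in 5 of the 204 cattle-yak cells (2.45%, interval 0.80 to 5.63). Its level was 131 CPM in the yak and 9.22 CPM in the cattle-yak cells. In cytotoxic cells it was found in 13 of 1127 yak cells and 0 of 327 cattle-yak cells, the latter allowing up to 3.41 CPM.

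The chosen cells were also divided by whether they held *ICOS* or *CD28*. Of the 168 yak UMIs of *CTLA4*, 163 lay in 46 of the 372 cells with *ICOS* or *CD28* and 5 in 4 of the 150 cells with *IL7R* alone, at 171 and 15.4 CPM. The rule takes part in this split, since a chosen cell without *IL7R* must hold *ICOS* or *CD28*, and *IL7R* was found in only 27 of the 50 cells with *CTLA4*. In the cattle-yak library, the corresponding levels were 9.80 and 8.48 CPM from 3 and 2 UMIs. *LTB* and *GPR183* did not divide the cells in this way. *LTB* stood at 1097 and 1077 CPM in yak cells with and without *ICOS* or *CD28*, and at 905 and 987 CPM in cattle-yak cells. *GPR183* stood at 414 and 385 CPM in the yak and at 301 and 441 CPM in the cattle-yak cells. The beta constant region stood at 2021 and 1336 CPM in the yak and at 1398 and 1132 CPM in the cattle-yak cells.

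The 50 yak cells with *CTLA4* were then set beside the 472 without it, a split and a choice of genes made after their values had been seen. *ICOS* stood at 592 CPM (interval 480 to 723) against 369 CPM, and *CD3D* at 808 CPM (interval 675 to 959) against 335 CPM. The inhibitory receptor spelled *LAG 3* in the annotation gave 43 UMIs in 10 of these cells, or 265 CPM, against 15.2 CPM, and 30.2% of them came from 1 cell. *IL2RA*, the high-affinity interleukin 2 receptor chain, gave 13 UMIs in 10 cells, or 80.2 CPM, against 9.84 CPM. *TNFRSF4*, a costimulatory receptor of activated T cells, gave 10 UMIs, but in 4 cells, with 50.0% in 1 of them. The T cell receptor beta constant region stood at 2658 against 1729 CPM and *GATA3* at 80.2 against 24.1 CPM. The cell cycle genes *TOP2A* and *CENPF* stood at 345 against 51.0 CPM and 481 against 93.9 CPM, with 62.5% and 62.8% of their UMIs in 1 cell. Other genes were lower in the cells with *CTLA4*, among them *LTB* at 833 CPM (interval 698 to 985) against 1129 CPM, *ID2* at 746 against 1306 CPM and *IFNG* at 18.5 against 77.8 CPM. *IL7R* stood at 413 CPM (interval 320 to 525) against 1399 CPM, *GPR183* at 136 CPM (interval 85.0 to 205) against 446 CPM, and *S100A13* at 86.3 CPM (interval 47.2 to 145) against 296 CPM. For *CD28*, *CD4*, *DPP4* and *JAG1* the intervals of both groups overlapped, with *CD4* at 74.0 against 34.9 CPM and *DPP4* at 136 against 188 CPM. A cell without *IL7R* had to hold *ICOS* or *CD28* to be chosen, so the levels of the rule genes in this split are bound to one another. *FOXP3* gave 2 UMIs in 2 of the 50 cells with *CTLA4* and 0 in the 472 without it, too few to compare.

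**Figure D5:**
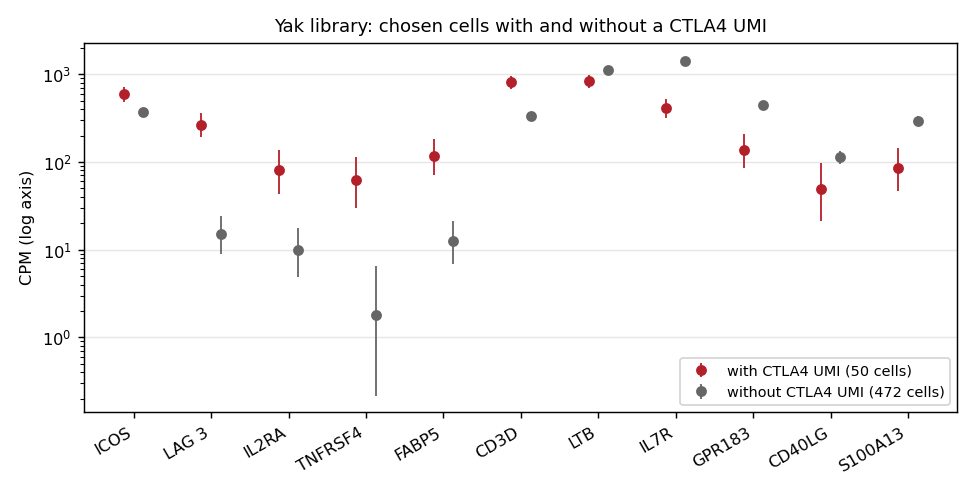
Levels of 11 genes in the 50 chosen yak cells with a CTLA4 UMI and in the 472 without one, in CPM on a log axis, with exact Poisson 95% intervals as lines. LAG 3, IL2RA, TNFRSF4 and FABP5 lie higher in the cells with CTLA4, from few UMIs each, and IL7R, GPR183 and S100A13 lie lower.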

How the data were processed

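The authors deposited raw UMI counts for each gene in each cell barcode, output of Cell Ranger that was not normalized. The submitters' processing notes name Cell Ranger 2.1.1 and the file headers 5.0.0, while the paper names a further version. The paper maps the yak reads to the yak genome BosGru3.0, and a mapping of the cattle-yak library is not given in the sources used here. Barcodes are those called by Cell Ranger. The annotation holds 26961 features, 15709 with a symbol.

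The members, the gene lists and the tests were chosen with earlier results of these data known. Features whose identifier does not start with ENSBGRG were taken as mitochondrial (37 features), and cells with 30% or more of such UMIs were left out (877 yak, 1310 cattle-yak). Counts were summed per group and library and scaled to CPM over all features, with exact Poisson intervals. Log2 ratios used CPM plus 1, and their intervals came from the exact binomial split of the 2 counts. Shares have Clopper-Pearson intervals at 95%. A gene counted as past the threshold at 2-fold, among genes with at least 30 summed counts. Thinning drew 1000 UMIs per cell with seed 0. A count of 0 was given an upper limit of 3 counts over the group. UMIs are counted once per molecule, but reads, free RNA and dissociation add error that the intervals do not hold. No doublet caller was run. The paper's methods describe a removal of double and multiple cells during Cell Ranger processing, and the 20 yak cells with both spermatid and rule genes are among the deposited barcodes.

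Named genes were members of the lists with at least 10 counts, the 12 highest and 8 lowest ratios to cytotoxic cells taken over both libraries, and the 8 highest and 8 lowest between libraries. Genes ranked by ratio had a UMI in at least 10% of the cells of the higher group, in both libraries for the ratios to cytotoxic cells. Genes with fewer counts are named where their near absence is the value given, and the cells with *CTLA4*, *LAG 3* and *FABP5* were picked after seeing their values. *CD3E*, planned as the check of the label, had no symbol, and *CD3D* took its place. Features without a symbol were described from the study's gene annotation. Calculations used Python 3.11.15, numpy 2.4.6, scipy 1.17.1 and pandas 2.3.3, and figures matplotlib 3.10.9. The scripts were tested on simulated data. Some genes of the lists are not reported here.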

Additional observations from a re-analysis of the deposited data

Results flagged for a closer look

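With the 20 spermatid-type yak cells left out, some genes stood on opposite sides of the cytotoxic cells in the 2 libraries. Each had an interval that left out 0. The T cell receptor beta constant region (ENSBGRG00000007369) had a log2 ratio of 0.57 in the yak and -0.27 in the cattle-yak cells, and the alpha constant region (ENSBGRG00000008096) 0.26 and -0.44. The 20 spermatid-type cells held 9 UMIs of the beta and 3 of the alpha region, and 37.8% of the UMIs of all 542 yak cells. Counting them lowers both yak ratios and turns that of the alpha region negative. *FOXO1*, a transcription factor of resting T cells, had 0.28 and -0.51, and the chaperone *HSP90AA1* -0.28 and 0.31. The difference between the libraries was not tested for these 4 genes, since each library has no replicate.

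Cells left out for a mitochondrial share of 30% or more included 8 yak and 36 cattle-yak cells that met the rest of the rule. The 36 cattle-yak cells had a median share of 33.2% and held the beta constant region (ENSBGRG00000007369) at 1268 CPM, *LTB* at 367 CPM and *CD3D* at 94.8 CPM. The 8 yak cells held 4 UMIs of *LTB* and 0 of *CD3D*.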

How the results depend on the processing

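In 110 recomputed values 0 changed direction and 53 stayed close to the main ones, which counted all 542 yak cells. Among them only the log2 ratios of *LTB* and *GPR183* have a direction, since a share or a count cannot turn. Ratios of other genes were not among them. The yak median of the T cell receptor list did turn, from 0.21 without the spermatid-type cells to -0.25 with them. The share of kept cells that met the rule was 7.37% in the yak and 3.78% in the cattle-yak library from 1 UMI of *IL7R*, *ICOS* and *CD28*, 3.59% and 1.84% from 3, 1.90% and 1.19% with 0 cytotoxic UMIs allowed, 5.96% in the yak with up to 5, 4.03% and 1.89% after thinning, 1.53% in the cattle-yak with a mitochondrial limit of 20%, and 6.63% and 3.42% without other marker cells. The yak log2 ratio of *LTB*, 0.71 over all 542 cells, was 1.08 as a mean of per-cell CPM, 1.06 thinned (cattle-yak 0.95), 0.86 from 3 rule UMIs, 0.87 with 0 cytotoxic UMIs, 1.01 without the deepest 10% of cells, 1.28 without spermatid marker cells and 1.01 without all other marker cells. That of *GPR183*, 1.28, was 2.00 as a mean of per-cell CPM, 1.98 thinned (cattle-yak 1.45), 1.58 from 3 rule UMIs, 1.69 without the deepest 10%, 1.89 without spermatid marker cells and 1.69 without other marker cells, and the cattle-yak value was 2.30 with 0 cytotoxic UMIs and 1.47 with the 20% limit. The yak values listed here lay above the one over all cells. With mitochondrial features out of the denominator, the yak ratios lay below it, at 0.67 for *LTB* and 1.25 for *GPR183*. The yak *LTB* ratio of 1.28 given in the Results, without spermatid marker cells, was the highest of its settings. Its other settings ran from 0.67 to 1.08.

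Counts of genes moved more. Genes higher than in cytotoxic cells, 17, became 28 by per-cell means, 9 with 10 CPM added, 5 with the 20% limit, 6 at 60 summed counts and 260 with no minimum. Genes lower, 83, became 41, 39, 52 (without other marker cells), 43 and 611 for 10 CPM, the 20% limit, other marker cells, 60 counts and no minimum. Between libraries, 257 higher genes became 441 without mitochondrial features in the denominator, 107 by per-cell means, 122 with 10 CPM added, 130 from 3 rule UMIs, 56 without the deepest 10%, 502 with the 20% limit, 85 without spermatid marker cells, 51 without other marker cells, 115 at 60 counts and 1708 with no minimum. The 2711 lower genes became 543 without the deepest 10%, 411, 497 and 5126 without spermatid marker cells, without other marker cells and with no minimum. Fewer genes were tested at 60 counts and more with no minimum, and for the other settings the cause was not tested. The share with *CD3D* over all 542 yak and the 204 cattle-yak cells, 27.6% and 16.5% at 1000 UMIs, was 53.5% and 41.2% without thinning and 14.9% and 8.33% at 500 UMIs. The exclusions by spermatid and other marker transcripts were chosen after seeing the data. No paired analysis was possible because each group has 1 library, and for the same reason no replicate could be left out.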
